A study of Mus musculus with 48 samples.

Results

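The 50 genes described here encode the contractile apparatus, the calcium-handling machinery and the energy metabolism of skeletal muscle. They were chosen by name, and each was looked up by Ensembl identifier among the 36854 genes of the deposited count table: 50 of 50 were found. The table holds bulk RNA-seq counts of 48 mouse sarcomas on the 129/SvJae background. Primary tumours (n = 32) had been raised in the gastrocnemius, a calf muscle, of p53 fl/fl mice aged 6 to 10 weeks, by Adeno-Cre, an adenovirus that delivers Cre recombinase, and 300 µg of the carcinogen MCA. Allografts (n = 16) had grown from 50000 cells of a single line, 402230, placed in the same muscle of syngeneic mice. At about 150 mm3, every mouse had been given 200 µg of either muDX400, a murine anti-PD-1 antibody, or an isotype control, and then 0 or 20 Gy to the whole left hind limb, and tumours were taken on day 3. Each of the 4 combinations of dose and antibody holds 8 primary tumours and 4 allografts. All groups thus share the muscle bed, and the irradiated field covered that muscle as well as the tumour. Mouse-to-mouse differences in the site of injection and in how much surrounding muscle was taken with a tumour are not given in the labels.

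Muscle fibres shorten when thick filaments of myosin pull on thin filaments of actin, and troponin and tropomyosin on the thin filament let this happen only when calcium is released from the sarcoplasmic reticulum. Fast and slow fibres use different members of the same families, so that a fast fibre carries Myh4 or Myh1 myosin with Tnni2, Tnnt3 and Tnnc2 troponin, and a slow fibre carries Myh7 with Tnni1, Tnnt1 and Tnnc1. The mouse gastrocnemius is mostly fast. Of the 50 genes, 11 belong to the thin filament, 12 to the thick filament, 10 to the Z disc and cytoskeleton, 8 to calcium handling and 9 to energy metabolism; 14 are fast, 9 are slow and 27 were put in neither class.

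The regions before the start sites of 5 of these genes are shown because their products mark the content and type of muscle in what follows: Acta1, skeletal actin; Myh4, the fastest adult myosin; Casq1 and Casq2, the fast and slow calcium stores; and Tnnc1, the slow calcium sensor. They are the 200 bases upstream of the RefSeq start on GRCm38.p6, 5′ to 3′ on the gene's strand. Capitals mark matches, on both strands, to the E-box CANNTG, the TATA box TATAAA, the MCAT element CATTCC, the MEF2 motif and the CArG box. The MEF2 match of Myh4 contains a TATA match on the other strand.
Acta1, chr8:123894776-123894975, minus strand: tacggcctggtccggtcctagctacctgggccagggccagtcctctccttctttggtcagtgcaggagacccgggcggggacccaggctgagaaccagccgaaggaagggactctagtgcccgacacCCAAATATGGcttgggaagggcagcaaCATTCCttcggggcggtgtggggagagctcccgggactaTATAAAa
Myh4, chr11:67237612-67237811, plus strand: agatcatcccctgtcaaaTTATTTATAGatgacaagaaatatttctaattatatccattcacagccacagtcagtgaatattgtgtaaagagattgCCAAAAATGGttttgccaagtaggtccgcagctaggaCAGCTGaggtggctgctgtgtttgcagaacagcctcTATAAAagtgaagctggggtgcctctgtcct
Casq1, chr1:172219896-172220095, minus strand: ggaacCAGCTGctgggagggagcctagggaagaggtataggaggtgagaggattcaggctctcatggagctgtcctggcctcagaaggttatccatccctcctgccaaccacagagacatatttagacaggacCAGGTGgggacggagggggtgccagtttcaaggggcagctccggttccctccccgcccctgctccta
Tnnc1, chr14:31208112-31208311, plus strand: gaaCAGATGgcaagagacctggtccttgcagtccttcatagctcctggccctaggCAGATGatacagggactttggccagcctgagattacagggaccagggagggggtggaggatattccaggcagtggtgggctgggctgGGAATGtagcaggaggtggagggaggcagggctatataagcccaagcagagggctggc
Casq2, chr3:102086215-102086414, plus strand: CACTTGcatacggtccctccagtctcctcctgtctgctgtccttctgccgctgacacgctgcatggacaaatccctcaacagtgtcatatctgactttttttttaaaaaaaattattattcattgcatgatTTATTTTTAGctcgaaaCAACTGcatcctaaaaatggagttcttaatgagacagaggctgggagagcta

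Promoters of 39 of the 50 genes were in the RefSeq table, 50 promoters in all. Within 250 bases before the start, 16% of these promoters held a MEF2 match, against 1.69% of all 32851 promoters. A CArG box was found in 10.0% against 1.47%, an MCAT element in 22.0% against 12.6%, an E-box in 84.0% against 66.2% and a TATA box in 12% against 12.4%. These shares describe letters in a window, and no binding was measured.

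Muscle gene content differed widely between tumours of the same group. Summed over the 50 genes, TMM-scaled CPM (a gene's count relative to the size of its library) ran from 1978 to 137126 over the 48 tumours, with a median of 6796, and the genes took 0.197% to 11.7% of a tumour's counts. The summed fast genes alone ran from 15.65 to 74778 CPM. In the tumour at 1978 CPM, number 5 of the irradiated anti-PD-1 primary group, Atp2a2 alone was at 742 CPM and the fast genes summed to 19.75 CPM. Low sums of the 50 genes thus do not measure muscle alone, since Atp2a2 and the tropomyosin genes are also used outside muscle. Among primary tumours, the lowest, median and highest sums were 2281, 5950 and 13075 CPM at 0 Gy with isotype, and 2792, 4527 and 14915 CPM at 0 Gy with anti-PD-1. They were 2139, 4558 and 75518 CPM at 20 Gy with isotype, and 1978, 5550 and 137126 CPM at 20 Gy with anti-PD-1. The medians of the 4 primary groups thus lay close together, and the irradiated groups differed from the others by their highest tumours: 2 of 8 isotype and 3 of 8 anti-PD-1 tumours exceeded 20000 CPM after 20 Gy, and 0 of 8 did in either group at 0 Gy. Above 10000 CPM were 3 of 8 in each irradiated group, and 2 of 8 isotype and 1 of 8 anti-PD-1 tumours at 0 Gy. Above 5000 CPM were 4 of 8 in each irradiated group, and 5 and 4 of 8 at 0 Gy. These counts were not tested.

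In the allografts, the sums were 2375, 7666, 38856 and 19846 CPM in the 4 tumours at 0 Gy with isotype, and 32986, 9671, 6721 and 13572 CPM at 0 Gy with anti-PD-1. After 20 Gy they were 2226, 22966, 15383 and 7599 CPM with isotype, and 6933, 27697, 19958 and 5704 CPM with anti-PD-1. Each allograft group held 1 tumour above 20000 CPM, and the 4 groups overlapped throughout. In bulk RNA, fewer muscle fibres in a sample and less RNA per fibre cannot be told apart.

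**Figure D1:**
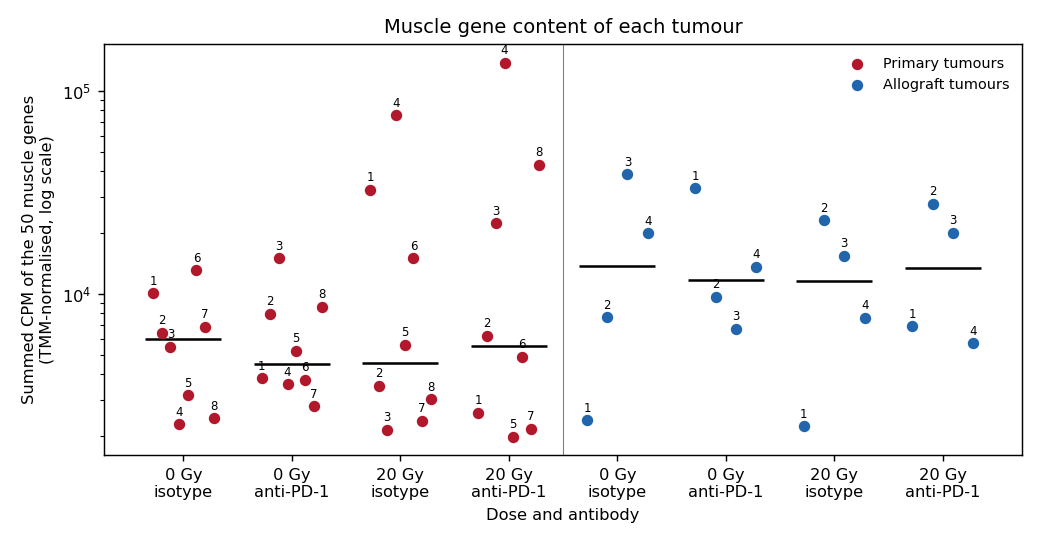
Summed CPM of the 50 muscle genes in each tumour on a log axis, by dose and antibody, primary tumours in red and allografts in blue; numbers name the tumours and lines are group medians. The 5 primary tumours above 20000 CPM were all irradiated, and each allograft group has 1 tumour above that level.

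Actin and creatine kinase, themselves among the larger terms of the sums, were high where the sums were high. Acta1, the actin of adult skeletal muscle, was at 12.4, 351 and 1381 CPM (lowest, median, highest) in primary tumours at 0 Gy with isotype and at 13.9, 312 and 1464 CPM with anti-PD-1. In irradiated tumours it was at 67.9, 441 and 10166 CPM with isotype and at 2.19, 515 and 19390 CPM with anti-PD-1. The groups overlapped, and both the lowest and the highest of the 32 values fell in the irradiated anti-PD-1 group.
Acta1 in the allografts was at 17.4, 653, 5064 and 2255 CPM at 0 Gy with isotype, and at 4606, 1203, 672 and 1602 CPM at 0 Gy with anti-PD-1. In irradiated tumours it was at 23.2, 2774, 1678 and 563 CPM with isotype, and at 632, 2646, 2069 and 599 CPM with anti-PD-1. The first tumour of each isotype group was the lowest of its group, and no pair of these groups separated.

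Ckm, the muscle creatine kinase that regenerates ATP, ran over 8.68, 151 and 601 CPM at 0 Gy with isotype, 4.66, 124.4 and 714 CPM at 0 Gy with anti-PD-1, 28.02, 120.9 and 5082 CPM at 20 Gy with isotype and 1.19, 140.9 and 9788 CPM at 20 Gy with anti-PD-1 in primary tumours. Its 4 medians were close together, while its highest values after 20 Gy were several times those at 0 Gy.
Ckm in the allografts was at 5.58, 187, 2251 and 1098 CPM and 1742, 425, 146 and 712 CPM at 0 Gy (isotype, then anti-PD-1), and at 4.15, 994, 570 and 222 CPM and 210, 1034, 841 and 128.8 CPM at 20 Gy. No dose or antibody separated the allografts.
Mb, myoglobin, which stores oxygen in oxidative fibres, was at 0.391, 17.6 and 109.5 CPM at 0 Gy with isotype and at 0.903, 23.5 and 57.6 CPM with anti-PD-1 in primary tumours. After 20 Gy, Mb was at 1.22, 46.7 and 276 CPM with isotype and at 0.137, 22.1 and 1585 CPM with anti-PD-1. The value of 1585 CPM belonged to tumour 4 of the irradiated anti-PD-1 group, the tumour with the highest sum. In the irradiated isotype group Mb was highest in tumour 1, at 276 CPM, and at 149 CPM in tumour 4, which had the highest sum. At 0 Gy with anti-PD-1 it was 57.6 CPM in tumour 8 and 20.8 CPM in tumour 3, the one with the highest sum.
Mb in the allografts was at 2.24, 50.3, 114.7 and 122.6 CPM and 161, 55.4, 46.7 and 20.0 CPM at 0 Gy (isotype, then anti-PD-1), and at 1.85, 195, 182 and 37.1 CPM and 80.0, 256, 108.6 and 45.3 CPM at 20 Gy. The groups overlapped here as well.

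**Figure D2:**
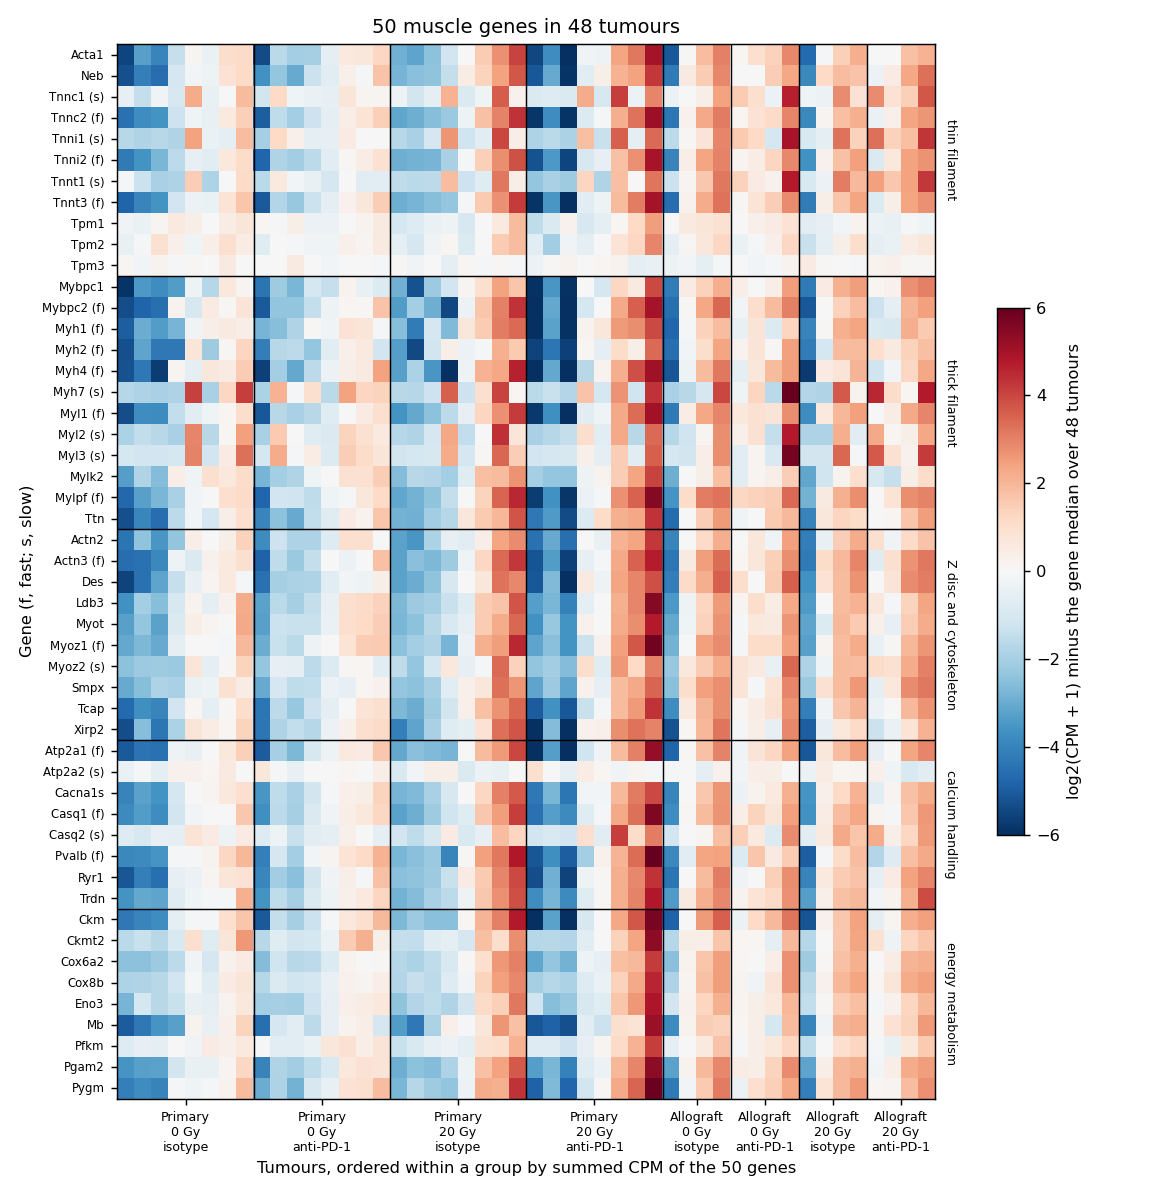
log2(CPM + 1) of each of the 50 genes in each of the 48 tumours, minus the gene's median over the tumours, with genes grouped by role and tumours ordered within each group by summed CPM; colours saturate at 6 in either direction. Most genes change together from the low to the high tumours of a group, Atp2a2 and Tpm3 hardly change, and most other slow genes follow less closely.

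Per length, the level scale on which genes can be compared, Acta1 was highest in untreated primary tumours, with a group median of 229 CPM per kb. The tropomyosins Tpm2, Tpm1 and Tpm3, which cover the myosin sites on actin, followed at 176, 170 and 115.3 CPM per kb, and Myh4 reached 92.1 CPM per kb. Their spread within this group differed. Myh4 ranged 159-fold between the lowest and the highest tumour and Acta1 111.8-fold, whereas Tpm1 ranged 2.17-fold, Tpm3 1.62-fold, Atp2a2 2.17-fold and Pfkm 2.58-fold. Tropomyosin and phosphofructokinase genes are also used outside muscle, and Atp2a2, the slow sarcoplasmic calcium pump, has a form found in most cells. Slow myosin Myh7 was lowest, at a median of 0.0130 CPM per kb.

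Most of the genes varied together. After group means of log2(CPM + 1) were removed, 38 of the 50 correlated above 0.9 with the mean of the other members over the 32 primary tumours, and 40 of 50 did over the 16 allografts. These correlations share libraries and depth and are given as descriptions. Tnnc2, Tnni2, Myl1 and Tcap, the telethonin that caps titin, were highest in primary tumours, at 0.991 to 0.992. Atp2a2 and Tpm3 stood apart, at 0.020 and -0.161 in primary tumours and at 0.008 and -0.344 in allografts. Atp2a2 ranged from 205 to 742 CPM over the primary tumours, so that its level makes up most of the summed slow CPM in tumours with little muscle. It also did so in some tumours with high sums. Atp2a2 gave 387 of 443 slow CPM in tumour 4 at 20 Gy with isotype and 427.5 of 461.5 in tumour 8 at 20 Gy with anti-PD-1.

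Fast genes varied nearly in unison, and slow genes followed them to different degrees. The median correlation of the 91 pairs of fast genes was 0.968 in primary tumours and 0.980 in allografts. The 36 pairs of slow genes had a median of 0.874 and 0.893, and the pairs of a fast and a slow gene one of 0.609 and 0.573. Among themselves, 6 slow genes varied closely together. Pairs among Myh7, Myl2, Myl3, Tnnt1, Tnni1 and Tnnc1 had a median r of 0.915 (lowest 0.873) in primary tumours and 0.956 (lowest 0.864) in allografts. With the mean of these 6, r was 0.891 and 0.812 for Myoz2, 0.819 and 0.922 for Casq2, and 0.040 and 0.079 for Atp2a2 (primary tumours, then allografts). The slow genes differed in how closely they followed the fast ones. Over primary tumours and allografts, r with the mean of the fast genes was 0.856 and 0.906 for Myoz2, a slow Z-disc protein that binds calcineurin, 0.756 and 0.683 for Casq2, and -0.009 and -0.004 for Atp2a2. For Myh7, Myl2, Myl3, Tnnt1, Tnni1 and Tnnc1, the slow myosin chains and troponins, it ran from 0.537 to 0.624 in primary tumours and from 0.481 to 0.777 in allografts.

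The 6 fast and slow counterparts chosen for testing gave 12 correlations in all, each tested by permutation within groups. Casq1 and Casq2, calsequestrins that hold calcium in the reticulum, had r = 0.784 (Spearman's rho = 0.793) in 32 primary tumours (permutation test, adjusted p = 0.00024) and r = 0.742 (rho = 0.712) in 16 allografts (permutation test, adjusted p = 0.0033). Tnni2 and Tnni1, the inhibitory troponins, had r = 0.644 (rho = 0.699) in primary tumours and 0.630 (rho = 0.606) in allografts (permutation tests, adjusted p = 0.0033 and 0.028). Tnnt3 and Tnnt1, the troponins that bind tropomyosin, had r = 0.624 (rho = 0.637) and 0.767 (rho = 0.759), both with a permutation adjusted p of 0.0033. These pairs were thus positively related in both kinds of tumour.
Tnnc2 and Tnnc1, the calcium sensors, had r = 0.554 (rho = 0.608) and 0.541 (rho = 0.553) (permutation tests, adjusted p = 0.014 and 0.042). Myh4 and Myh7, the fast and slow myosin motors, had r = 0.425 (rho = 0.511) in primary tumours (permutation test, adjusted p = 0.037) and 0.447 (rho = 0.494) in allografts (permutation test, adjusted p = 0.12). Atp2a1 and Atp2a2, the calcium pumps, showed no relation that passed the test, with r = 0.011 (rho = 0.065) and 0.047 (rho = 0.009) (permutation tests, adjusted p = 0.96 and 0.94).

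Some of these relations no longer passed the test with fewer tumours. Without the 2 tumours farthest from the median of the fast gene, the permutation adjusted p rose to 0.056 for Tnnc2 and Tnnc1 (r = 0.473) and to 0.12 for Myh4 and Myh7 (r = 0.351) in primary tumours. In allografts it rose to 0.13 for Tnni2 and Tnni1 (r = 0.493), 0.084 for Tnnc2 and Tnnc1 (r = 0.580, against 0.541 with all 16) and 0.056 for Casq1 and Casq2 (r = 0.635). Casq1 with Casq2 (0.722), Tnni2 with Tnni1 (0.564) and Tnnt3 with Tnnt1 (0.518) in primary tumours, and Tnnt3 with Tnnt1 in allografts (0.705), kept an adjusted p under the threshold of 0.05. Among the 30 primary tumours whose identifiers begin with 4, r was 0.811 for the calsequestrins, 0.696, 0.683 and 0.595 for the I, T and C troponins, 0.565 for the myosins and 0.158 for the pumps. Among the 11 allografts whose identifiers begin with 5, the same values were 0.646, 0.579, 0.762, 0.489, 0.440 and -0.223. The other 2 primary tumours and 5 allografts were too few.

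**Figure D3:**
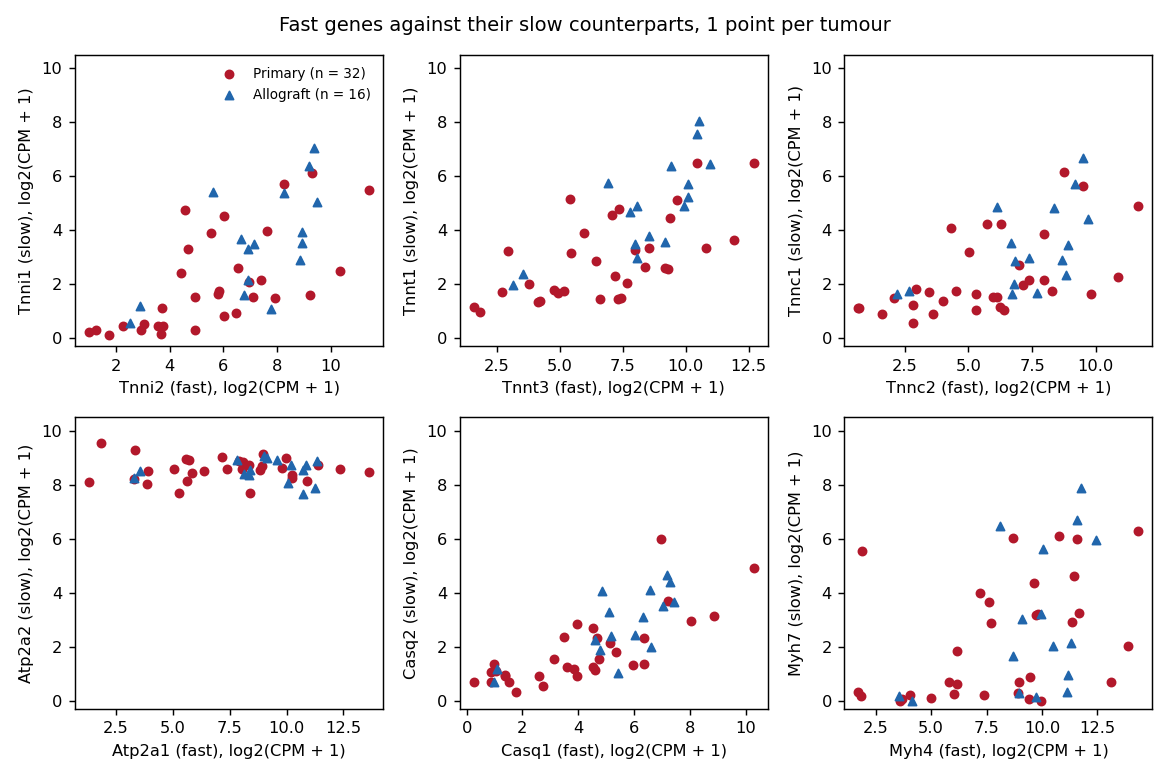
Each fast gene (horizontal) against its slow counterpart (vertical) as log2(CPM + 1), 1 point per tumour, red circles for 32 primary tumours and blue triangles for 16 allografts. Slow genes rise with fast ones for the troponins and calsequestrins with a wide scatter, Atp2a2 stays level across the range of Atp2a1, and Myh7 is near 0 in many tumours with high Myh4.

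The values behind these pairs show where fast and slow muscle part. Tnni2 in primary tumours was at 3.75, 43.1 and 195 CPM (lowest, median, highest) at 0 Gy with isotype, 2.35, 42.5 and 170 CPM at 0 Gy with anti-PD-1, 10.7, 54.5 and 1294 CPM at 20 Gy with isotype and 0.985, 54.9 and 2771 CPM at 20 Gy with anti-PD-1. Its slow counterpart Tnni1 was at 0.227, 1.13 and 22.0 CPM, 0.0903, 3.33 and 8.79 CPM, 0.118, 1.47 and 68.4 CPM, and 0.164, 1.37 and 51.8 CPM in the same order of groups. Tnni1 was highest in tumour 1 of the irradiated isotype group, not in tumour 4, where Tnni2 was highest.
In allografts, Tnni2 was at 4.68, 118.5, 720 and 464 CPM and 673, 120.6, 99.29 and 221 CPM at 0 Gy (isotype, then anti-PD-1), and at 6.37, 492.8, 308 and 107.9 CPM and 138.6, 584, 483 and 47.9 CPM at 20 Gy. Tnni1 was at 0.453, 3.48, 31.8 and 6.44 CPM and 130.8, 8.96, 11.8 and 1.09 CPM at 0 Gy, and at 1.29, 10.4, 40.5 and 2.03 CPM and 10.1, 82.7, 14.4 and 42.0 CPM at 20 Gy. In the irradiated anti-PD-1 group the fourth tumour had the lowest Tnni2 and the second highest Tnni1.

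Tnnt3 in primary tumours was at 6.60, 125.9 and 674 CPM, 5.53, 115.7 and 584 CPM, 26.6, 121.6 and 3897 CPM, and 2.00, 153 and 6695 CPM in the order of groups used for Tnni2. Tnnt1 was at 1.53, 5.68 and 26.1 CPM, 2.22, 5.64 and 13.8 CPM, 2.21, 3.96 and 87.6 CPM, and 0.939, 5.41 and 88.9 CPM. The median of Tnnt1 after 20 Gy lay below that at 0 Gy with either antibody.
In allografts, Tnnt3 was at 7.95, 253, 2029 and 988 CPM and 1499, 372, 219 and 578 CPM at 0 Gy, and at 10.53, 1095, 675 and 265 CPM and 266, 1418, 1080 and 119.6 CPM at 20 Gy, isotype before anti-PD-1. Tnnt1 was at 2.94, 10.1, 85.9 and 28.7 CPM and 265, 12.6, 24.5 and 10.8 CPM at 0 Gy, and at 4.13, 36.1, 81.1 and 6.74 CPM and 28.8, 186, 50.7 and 52.1 CPM at 20 Gy. Tumour 1 of the unirradiated anti-PD-1 group was far above its group in Tnnt1.

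Tnnc2 in primary tumours was at 3.23, 53.3 and 252 CPM, 2.08, 49.9 and 252 CPM, 9.80, 46.8 and 1880 CPM, and 0.602, 67.9 and 3272 CPM. Tnnc1 was at 0.477, 2.18 and 17.7 CPM, 0.867, 2.88 and 8.16 CPM, 0.847, 2.30 and 49.0 CPM, and 1.04, 1.71 and 69.4 CPM. The 69.4 CPM of Tnnc1 came from tumour 3 of the irradiated anti-PD-1 group.
In allografts, Tnnc2 was at 3.60, 109.8, 822 and 450 CPM and 718, 168, 102.3 and 206 CPM at 0 Gy, and at 5.39, 411, 326 and 104.3 CPM and 113.7, 585, 477 and 69.4 CPM at 20 Gy. Tnnc1 was at 2.08, 3.05, 20.4 and 4.10 CPM and 99.6, 6.76, 10.4 and 2.16 CPM at 0 Gy, and at 2.32, 6.35, 27.4 and 2.10 CPM and 6.21, 51.6, 9.83 and 27.6 CPM at 20 Gy. Irradiated and unirradiated allografts overlapped in both genes.

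Casq1 in primary tumours was at 0.834, 16.6 and 80.5 CPM, 1.07, 17.7 and 61.6 CPM, 1.84, 12.5 and 470 CPM, and 0.196, 19.1 and 1257 CPM. Atp2a1, the fast calcium pump, was at 8.84, 253 and 881 CPM, 9.07, 215 and 1006 CPM, 37.97, 194 and 5166 CPM, and 1.48, 209 and 12738 CPM. Atp2a2 was at 258, 407 and 559 CPM, 281, 386 and 622 CPM, 205, 321 and 491 CPM, and 275, 404 and 742 CPM. Casq1 and Atp2a1 peaked in the tumours with the highest sums, and Atp2a2 ranged 3.62-fold across all 32.
In allografts, Casq1 was at 0.954, 26.4, 171 and 97.84 CPM and 145, 65.5, 33.1 and 42.4 CPM at 0 Gy, and at 1.13, 130, 94.8 and 35.1 CPM and 23.6, 157, 79.0 and 28.2 CPM at 20 Gy. Atp2a1 was at 10.6, 338, 2582 and 1086 CPM and 1710, 555, 279 and 775 CPM at 0 Gy, and at 8.66, 1839, 1160 and 520 CPM and 320, 2438, 1672 and 227 CPM at 20 Gy. Atp2a2 was at 363, 375, 468 and 267 CPM and 376, 508, 341 and 487 CPM at 0 Gy, and at 305, 426, 421 and 533 CPM and 324, 237, 204 and 478 CPM at 20 Gy. The first isotype tumours, lowest in Casq1 and Atp2a1, were within the range of the others in Atp2a2.

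Myh4 in primary tumours was at 11.1, 554 and 1766 CPM, 11.9, 346 and 3285 CPM, 2.66, 331 and 14986 CPM, and 2.29, 454 and 21029 CPM. Myh7 was at 0, 0.112 and 67.5 CPM, 0.0361, 7.29 and 19.5 CPM, 0.165, 1.85 and 62.1 CPM, and 0.137, 0.737 and 76.8 CPM, and it was at 0 in 2 tumours at 0 Gy with isotype. Of these 2, tumour 7 held Myh4 at 990 CPM, while tumour 5 had the lowest Myh4 of its group. A tumour such as number 7 could thus hold ample fast myosin and almost no slow myosin.
In allografts, Myh4 was at 16.8, 493.1, 5489 and 2286 CPM and 3517, 995, 414 and 2271 CPM at 0 Gy, and at 10.7, 2511, 1059 and 860 CPM and 551, 3113, 1468 and 273 CPM at 20 Gy. Myh7 was at 0, 0.206, 60.8 and 0.919 CPM and 235, 8.22, 2.17 and 0.254 CPM at 0 Gy, and at 0.136, 3.41, 48.4 and 0.101 CPM and 7.07, 102.1, 3.12 and 87.8 CPM at 20 Gy. Myh7 was above 60 CPM in 4 of the 16 allografts.

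Per kb of exon, Myh4 made up a median of 72.0% of the 4 adult myosin heavy chains over the 48 tumours, Myh1 21.1%, the fast oxidative Myh2 4.69% and Myh7 0.338%. Myh4 was the largest share in 44 of the 48. Myh1 led in 3 primary tumours: tumour 5 at 0 Gy with isotype (53.9%), tumour 7 at 0 Gy with anti-PD-1 (62.3%) and tumour 8 at 20 Gy with isotype (50.9%). Myh2 led in tumour 2 of the irradiated isotype primary group, with Myh4 at 2.23%, Myh1 at 20.9%, Myh2 at 50.4% and Myh7 at 26.5%. Its summed CPM was 3518, below its group's median, and in it the difference of Tnni2 minus Tnni1 was -0.21 on the log2(CPM + 1) scale, which is not scaled for length. In every other tumour Myh4 made up at least 32.5%.

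**Figure D4:**
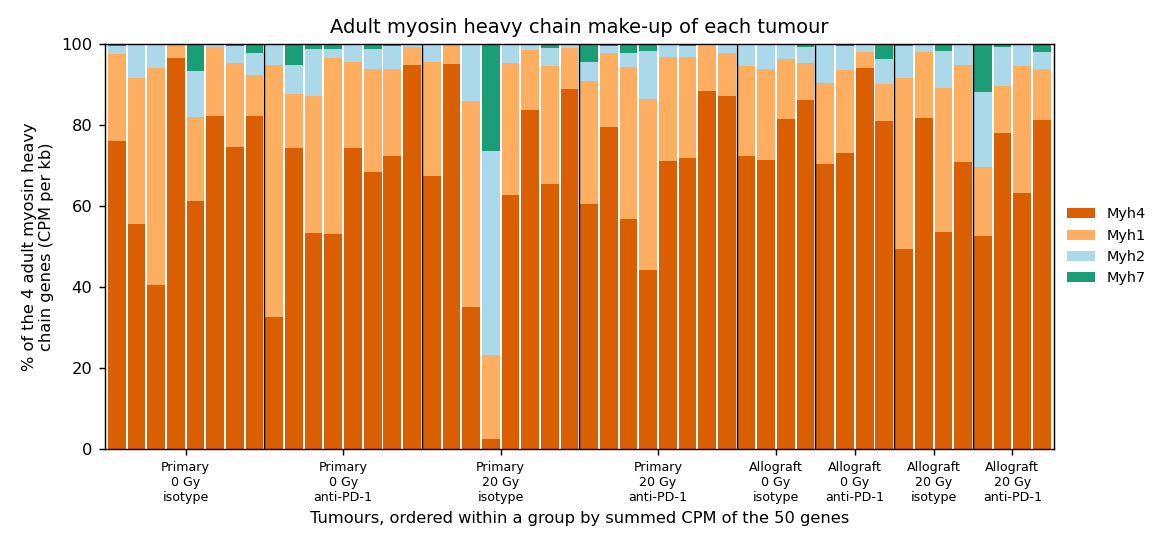
Share of Myh4, Myh1, Myh2 and Myh7 in their summed CPM per kb of exon for each tumour, ordered within a group by summed CPM of the 50 genes. Myh4 leads in most tumours, and 1 irradiated isotype tumour is mostly Myh2 and Myh7, with Myh4 at 2.23%.

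The first question of the design was what 20 Gy did to primary tumours. With isotype, edgeR's quasi-likelihood test called 0 of the 50 genes, where 14.5% of all 17770 genes tested were called at an adjusted p under 0.05 (7.85% higher and 6.64% lower); 1 of the 50 had an unadjusted p under 0.05, against 28.8% of all genes, and DESeq2 called 0, against 17.1% of all genes. The fitted log2 fold changes had a median of 1.95 over the 50 genes and -0.02 over all genes, and 45 of 50 were positive. Acta1 had a log2 fold change of 2.06 (SE 1.25, adjusted p = 0.280), Tnni2 2.20 (SE 1.22, adjusted p = 0.230) and Myh4 2.18 (SE 1.43, adjusted p = 0.319). Myh7 was at -0.23 (SE 1.45, adjusted p = 0.933). The group medians did not move in the same way: 24 of 50 genes had the higher median after 20 Gy, and the median log2 difference of the medians was -0.03. The highest tumour was irradiated for 47 of the 50, and 0 of the 50 separated the groups, against 1.94% of all genes. Without tumour 4 of the irradiated group the median fold change was 0.997. Of other markers in this comparison, 2 of 7 leukocyte markers were called higher (sums of 460 to 708 CPM at 0 Gy and 376 to 1030 CPM at 20 Gy), 1 of 4 heart markers was called higher (Mybpc3, at most 0.81 CPM in any tumour) and 1 of 7 smooth muscle markers lower (189 to 1753 CPM and 183 to 1465 CPM). Their part in the values of the 50 genes was not tested.

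With anti-PD-1, 20 Gy raised 1 of the 50 genes in primary tumours, against 7.92% of all genes called in either direction (6.06% higher and 1.86% lower), and the median log2 fold change was 2.52, with 49 of 50 positive. The group medians moved less: 36 of 50 genes had the higher median after 20 Gy, and the median log2 difference of the medians was 0.34. The irradiated group held the highest tumour for 49 of the 50 genes and the lowest for 44. An unadjusted p under 0.05 was found for 26 of the 50, against 23.6% of all genes, and 0 of the 50 separated the groups, against 0.416%. That gene was Casq2. It was at 0.442, 1.45 and 3.45 CPM (lowest, median, highest) at 0 Gy and at 0.606, 3.71 and 62.0 CPM at 20 Gy, and the groups overlapped. Casq2 rose by 2.99 on the log2 scale (SE 0.86, edgeR adjusted p = 0.0287, 8 tumours per group). Tumour 3, at 62.0 CPM, weighed most: without it Casq2 was at 1.96 (adjusted p = 0.138), and without tumour 4 of the same group at 2.73 (adjusted p = 0.0629). Leaving out tumour 6 or 7 of the unirradiated group gave 2.87 (adjusted p = 0.0572) and 2.94 (adjusted p = 0.0528). Without irradiated tumour 1 or 5, 2 of the 50 genes were called, against 10.7% and 10.4% of all genes. In a fit of the 2 groups alone Casq2 was at 3.02 (adjusted p = 0.0696).
Under the isotype, Casq2 was at 0.864, 1.75 and 5.39 CPM at 0 Gy and at 0.235, 1.23 and 11.9 CPM at 20 Gy, a log2 fold change of 0.47 (SE 0.80, adjusted p = 0.733). In allografts Casq2 was at 0.597, 2.68, 11.5 and 3.00 CPM and 24.3, 4.42, 8.64 and 1.01 CPM at 0 Gy (isotype, then anti-PD-1), and at 1.25, 10.4, 16.3 and 4.204 CPM and 3.77, 20.1, 7.52 and 15.8 CPM at 20 Gy, and the groups overlapped. Of the other genes under anti-PD-1, Acta1 had a log2 fold change of 2.77 (SE 1.28, adjusted p = 0.186), Ckm 2.97 (SE 1.38, adjusted p = 0.187) and Mb 3.04 (SE 1.33, adjusted p = 0.161). By group, fast genes had a median of 2.83 with 14 of 14 positive and slow genes one of 1.62 with 9 of 9 positive. Without tumour 4 of the irradiated group these were 1.3 with 14 of 14 positive and 0.64 with 6 of 9. DESeq2 called 13 of the 50, all higher, against 12.3% of all genes in either direction and 8.93% higher. Leaving out tumour 4 of the irradiated group brought the median fold change of the 50 to 1.14. In the same comparison 2 of 7 progenitor and regenerating muscle markers were called higher (median log2 fold change 3.58; sums of 15.97 to 149 CPM at 0 Gy and 7.55 to 387 CPM at 20 Gy), 8 of 8 adipocyte markers were positive with 0 called (median 1.99), and 1 of 7 smooth muscle markers was called lower. Their part in the values of Casq2 was not tested.

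The combination of 20 Gy and anti-PD-1 was also set against 0 Gy with isotype. In primary tumours, 2 of the 50 genes rose, against 13.8% of all genes called (8.78% higher and 4.98% lower), both of them enzymes of glycolysis: Eno3, the muscle enolase, and Pfkm, the muscle phosphofructokinase. An unadjusted p under 0.05 was found for 27 of the 50, against 29.4% of all genes, and 0 of the 50 separated the groups, against 0.58%. The median log2 fold change was 2.53 with 47 of 50 positive, while the median log2 difference of the group medians was 0.31, with 34 of 50 genes higher in treated tumours. Treated tumours were the highest for 49 of the 50 genes and the lowest for 44. Eno3 had a median of 48.6 CPM in control tumours, where the lowest was 11.2 CPM and the highest 11.4-fold above that, and it was at 13.1, 46.4 and 2460 CPM in treated ones. Eno3 rose by 2.94 on the log2 scale (SE 0.96, edgeR adjusted p = 0.0387, 8 tumours per group). Its medians did not rise, and the groups overlapped.
Pfkm was at 43.1, 69.8 and 111.2 CPM in control tumours and at 31.1, 68.3 and 1335 CPM in treated ones. Pfkm rose by 1.83 (SE 0.62, edgeR adjusted p = 0.0462). Both highest values were those of tumour 4, without which Eno3 was at 1.26 (adjusted p = 0.359), Pfkm at 0.53 (adjusted p = 0.533) and the median of the 50 genes at 1.23 in place of 2.53. Eno3 also missed the threshold without treated tumour 8 (2.93, adjusted p = 0.050) and without control tumour 2, 3, 4, 5, 7 or 8 (2.82 to 2.99, adjusted p = 0.0521 to 0.0686). Pfkm did so without treated tumour 3 or 8 (1.94 and 1.82, adjusted p = 0.0513 and 0.0626) and without control tumour 1, 2, 3, 4, 5 or 8 (1.76 to 1.91, adjusted p = 0.0593 to 0.0792).
Without treated tumour 1, 2, 5 or 7, edgeR called 5, 3, 4 and 3 of the 50, against 18.0%, 14%, 17.5% and 12.1% of all genes. DESeq2 called 23 of the 50 in this comparison, all higher, against 18.6% of all genes in either direction and 12.8% higher. In edgeR with Xist status as a covariate (Xist above 10 CPM, which marks female mice, in 5 of 8 control and 3 of 8 treated tumours) 0 of the 50 were called, and Eno3 was at 2.36 (adjusted p = 0.125). The share of all genes called in that fit is not given.

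Other tissue markers moved in the same comparison. Of 8 adipocyte markers, 2 were called higher and 0 lower, and their sum ran from 9.79 to 66.7 CPM in control and from 7.24 to 354 CPM in treated tumours. Of 10 markers of muscle progenitors and regenerating muscle, 7 were tested and 2 were called higher: embryonic myosin Myh3 (log2 fold change 4.42, SE 1.26, adjusted p = 0.0183) and the fusion protein gene Mymk (4.55, SE 1.39, adjusted p = 0.0271). Their list summed to between 24.95 and 323 CPM in control and 7.55 and 387 CPM in treated tumours. Leukocyte markers summed to 460 to 708 CPM and 435 to 1683 CPM, with 2 of 7 called higher, and smooth muscle markers to 189 to 1753 CPM and 138.9 to 582 CPM, with 2 of 7 called lower. Treated tumour 4, the highest in Eno3 and Pfkm, had the 354 CPM of adipocyte and the 1683 CPM of leukocyte markers, and the group's highest nerve and Schwann sum (122.2 CPM). The highest progenitor sum of the treated group was in tumour 3 and the highest smooth muscle sum in tumour 2. The part of these cells in the values of Eno3 and Pfkm was not tested. Among 50 further muscle genes, 4 were called higher, and their median log2 fold change was 2.38 with 49 of 50 positive.

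Anti-PD-1 alone called 0 of the 50 genes against isotype in primary tumours, both at 0 Gy and at 20 Gy, where 0% of all genes were called. DESeq2 also called 0 in each, against 0.0169% and 0.0281% of all genes, and 0 and 2 of the 50 had an unadjusted p under 0.05, against 2.32% and 8.12%. The median log2 fold changes were 0.05 and 0.66, and each changed sign as single tumours were left out, over -0.32 to 0.52 and -0.62 to 1.68. At 0 Gy fast genes had a median of 0.19 with 13 of 14 positive and slow genes one of -0.57 with 1 of 9 positive. The fast median turned to -0.31 without anti-PD-1 tumour 3, and the slow one was near 0 without isotype tumour 2 (-0.001, 4 of 9 positive). At 20 Gy the medians were 0.70 for the fast and 0.14 for the slow, and without anti-PD-1 tumour 4 they were -0.70 and -0.39. The difference between the classes was not tested.

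**Figure D5:**
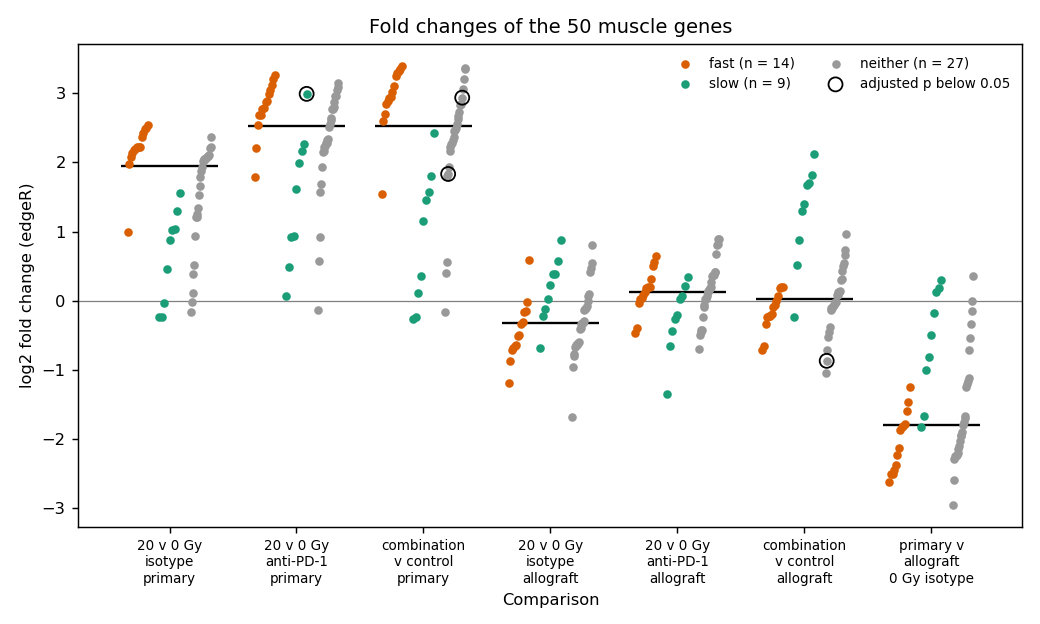
edgeR log2 fold changes of the 50 genes in 7 comparisons, each point 1 gene, coloured by fibre class; black lines are medians over the 50 and circles mark an adjusted p below 0.05. Medians over the 50 lie between 1.95 and 2.53 in the 3 primary comparisons that involve 20 Gy and near 0 in the allograft ones, and the circled genes are Casq2, Eno3, Pfkm and Tpm1.

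In allografts, 20 Gy called 0 of the 50 genes in edgeR with isotype (5.14% of all 17746 genes called, 4.4% higher and 0.744% lower, and 2 of the 50 at an unadjusted p under 0.05, against 18.2%) and 0 with anti-PD-1 (3.96% of all genes, 3.13% higher and 0.828% lower, and 1 of the 50 at an unadjusted p under 0.05, against 19.5%). The median log2 fold changes were -0.31 and 0.13, and each changed sign when single tumours were left out, over -0.75 to 0.54 and -0.43 to 1.04. Tpm1, which with Tpm2 and Tpm3 encodes tropomyosins, was the gene with the smallest adjusted p in both (0.0679 and 0.117). DESeq2, which called 8.62% and 9.38% of all genes, called 2 with isotype, Tpm1 at -0.82 (adjusted p = 0.0145) and Tpm3 at 0.40 (adjusted p = 0.0402), and 1 with anti-PD-1, Tpm1 at -0.72 (adjusted p = 0.0410). The groups did not overlap in 1 of the 50 genes with isotype (Tpm3) and in 1 with anti-PD-1 (Tpm1), against 14.3% and 9.22% of all genes. With isotype, identifiers of the unirradiated allografts all begin with 5, and those of the irradiated ones, except tumour 2, with 4. Dose and identifier digit can thus hardly be told apart there, and the labels do not say what the digit means. Without irradiated isotype tumour 2, edgeR called Tpm1 (-0.98, adjusted p = 0.0401), 1 of the 50 against 3.87% of all genes. Adipocyte markers had a median of -4.025 with isotype, with 1 of 8 positive, and 0.30 with anti-PD-1, with 6 of 8 positive and 0 called in either. Their part in these values was not tested.

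Tpm1 fell in allografts given the combination. It was at 952, 1364, 1742 and 1533 CPM in the control tumours and at 680, 788, 879 and 725 CPM in those given 20 Gy and anti-PD-1, and the groups did not overlap. With isotype and 20 Gy it was at 583, 1076, 831 and 669 CPM, and with anti-PD-1 and 0 Gy at 1693, 1154, 910 and 1306 CPM. Tpm1 fell by 0.87 on the log2 scale (SE 0.24, edgeR adjusted p = 0.0317, 4 tumours per group), the single call among the 50 in this comparison, where 9.66% of all genes were called (7.43% higher and 2.23% lower).
Tpm3 moved the other way without passing the test: it was at 549, 609, 624 and 464 CPM in control tumours and at 831, 719, 697 and 781 CPM in combination tumours, also without overlap (log2 fold change 0.43, SE 0.15, adjusted p = 0.0889). DESeq2 called both, with 14.8% of all genes, Tpm1 at -0.85 (adjusted p = 0.00635) and Tpm3 at 0.45 (adjusted p = 0.0114). In edgeR, Tpm1 missed the threshold without control tumour 2, 3 or 4 (-0.85, -0.74 and -0.79, adjusted p = 0.0839, 0.0712 and 0.0984) or treated tumour 1, 2 or 3 (-0.81, -0.85 and -0.91, adjusted p = 0.0646, 0.0810 and 0.0630). It also did so with Xist status as a covariate (-0.74, adjusted p = 0.0805; Xist was above 10 CPM in 1 of 4 control and 3 of 4 combination tumours), without a filter (-0.81, adjusted p = 0.0819), in a fit of the 2 groups alone (-0.83, adjusted p = 0.0844) and in one of all 48 samples (-0.86, adjusted p = 0.448). Tpm1 and Tpm3 give many transcript forms, and muscle and non-muscle forms of one gene are counted together here. The other 48 genes overlapped between these groups, and over all genes 14% did not overlap.
Smooth muscle markers, which share Tpm1 with skeletal muscle, summed to 202 to 275 CPM in the control and 112.6 to 236 CPM in the combination allografts, with 0 of 7 called, and leukocyte markers to 406 to 861 CPM and 990 to 1465 CPM, with 2 of 7 called higher. Their part in the change of Tpm1 was not tested.

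In allografts, anti-PD-1 against isotype called 0 of the 50 in edgeR and in DESeq2 at each dose, with 0% of all genes called by either tool, and 0 of the 50 had an unadjusted p under 0.05, against 1.68% and 3.84% of all genes. The median log2 fold changes were -0.12 at 0 Gy and 0.34 at 20 Gy, and each changed sign as single tumours were left out, over -0.89 to 0.74 and -0.11 to 0.96. At 0 Gy the median was -0.28 for the fast genes, with 1 of 14 positive, and 1.78 for the slow, with 9 of 9 positive, and both rested on single tumours. Slow myosin Myh7 was at 0, 0.206, 60.8 and 0.919 CPM in the isotype tumours and at 235, 8.22, 2.17 and 0.254 CPM in the anti-PD-1 ones, so anti-PD-1 tumour 1 stood far above the rest. Slow troponin T, Tnnt1, was at 2.94, 10.1, 85.9 and 28.7 CPM and at 265, 12.6, 24.5 and 10.8 CPM. Without anti-PD-1 tumour 1 the slow median was -0.89 with 2 of 9 positive, and Myh7 and Tnnt1 were at -2.09 and -0.99 (edgeR adjusted p = 0.934 for each). Without isotype tumour 3 the fast median was 0.54 with 13 of 14 positive, and the slow one 3.21. At 20 Gy the medians were 0.36 for the fast and 1.26 for the slow, over -0.19 to 1.01 and 0.61 to 2.75 as single tumours were left out. This difference between the classes was not tested. Adipocyte markers had a median of -0.001 at 0 Gy, with 4 of 8 positive, and 4.14 at 20 Gy, with 8 of 8 positive and 0 called at either dose. Their part in these values was not tested.

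Untreated primary tumours were lower than untreated allografts in 46 of the 50 genes by fold change, with a median log2 difference of -1.79, yet edgeR called 0 of the 50, where 10% of all 17357 genes were called (6.03% higher and 3.99% lower); 9 of the 50 had an unadjusted p under 0.05, against 26.1% of all genes, and DESeq2, with 16.5% of all genes called, called 1 of the 46 it gave a p-value for, Eno3 at -1.68 (adjusted p = 0.0337). Eno3 had the smallest edgeR adjusted p as well (-1.67, SE 0.60, adjusted p = 0.0975). It had a lowest value of 11.2 CPM and a median of 48.6 CPM in the 8 primary tumours, with the highest 11.4-fold above the lowest, and was at 37.0, 98.3, 371 and 205 CPM in the 4 allografts. The groups overlapped in all 50 genes, while 7.62% of all genes did not overlap. Without allograft tumour 3, the highest of its group, the median difference was -0.88. Of other markers in this comparison, 0 of 8 adipocyte markers were positive (median -2.90, 1 called lower), 2 of 7 leukocyte markers were called lower (median -1.78), 1 of 8 progenitor and regenerating muscle markers was called lower (median -2.60) and 3 of 7 smooth muscle markers were called higher (median 0.60). Their part in the difference of the 50 genes was not tested.
Whether 20 Gy acted differently in the 2 kinds of tumour was tested as an interaction over all 48 samples. edgeR and DESeq2 each called 0 of the 50 genes under either antibody, where 0.00517% and 0% of all 19327 genes were called by edgeR and 0.0259% and 0.0155% by DESeq2. The median interaction was 2.14 and 2.30 on the log2 scale, and 1 and 0 of the 50 genes had an unadjusted p under 0.05, against 9.9% and 4.77% of all genes. With isotype the median was 1.08 without unirradiated allograft tumour 3 and 1.26 without irradiated primary tumour 4. With anti-PD-1 it was 0.93 without irradiated primary tumour 4 and 1.37 without unirradiated allograft tumour 1.

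The genes whose levels across primary tumours were most like the mean of the 50 were named by rank among 11626 genes whose mean reached 5 CPM. Over 32 primary tumours with group means removed, Myom1, Eef1a2, Hfe2, Smyd1, Jsrp1, Trim72, Mypn, Alpk3, Fbxo40 and Klhl41 had r of 0.987 to 0.991, and 0.976 to 0.997 over the 16 allografts. Among the lowest were Gm10561 (-0.799), Cdk5 (-0.782), Fam92a (-0.779) and Mrgbp (-0.754). In all, 100 genes exceeded 0.9, and the median over the ranked genes was -0.092. All values share the same libraries.

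Markers of cells that lie near muscle were compared with the mean of the 50 genes in the same way, as descriptions. Over primary tumours and allografts, r was 0.957 and 0.980 for the sum of 50 further muscle genes, 0.590 and 0.706 for adipocyte markers, 0.406 and 0.869 for progenitor and regenerating muscle markers, 0.347 and 0.676 for nerve and Schwann markers, 0.174 and 0.655 for smooth muscle, 0.113 and 0.460 for tendon, 0.424 and 0.421 for heart, 0.450 and 0.225 for leukocytes and -0.391 and -0.394 for keratinocyte markers. The mitochondrial share of counts had r = 0.524 and 0.340 and the total count -0.209 and -0.121. Heart markers, with which slow muscle shares Myh7, Myl2, Myl3, Tnnc1, Atp2a2 and Casq2, summed to at most 24.0 CPM. In 5 of the 6 comparisons of irradiated with unirradiated tumours of a kind, 1 of the 4 heart markers tested was called higher (Mybpc3 in primary tumours with isotype and with the combination, Nppb in the 3 allograft comparisons). Both genes were near the floor, with Mybpc3 at most at 0.81 CPM and Nppb at most at 2.78 CPM over the 48 tumours. The atrial genes Nppa and Myl7 were at 0 in 27 and 29 of the 48 tumours.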

How the data were processed

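The authors deposited 1 table of raw counts per Ensembl gene for 48 tumours, made from stranded poly(A) libraries of RNA with an integrity number above 7, per the labels. Trimmomatic 0.36, STAR, HTSeq and the mouse build mm10 are named in the submitters' processing notes; versions of the others and the strand setting of the counting are not given in the sources used here, so overlapping and antisense genes are uncertain. The table's name refers to a first run. Totals were 31.8 to 54.0 M counts (median 41.2 M), so counting error is small beside the spread between tumours except for genes near 0.

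Symbols, gene spans and exon lengths came from GENCODE M21 (GRCm38), which named 36796 genes and left 58 unnamed; promoters came from RefSeq on GRCm38.p6. Groups follow the labels, and replicate numbers follow accession order. The labels do not state that the tumours of a group are separate mice, so p-values measure only the spread between these samples. CPM were TMM-scaled over all 48 samples. Tests used edgeR 4.0.16 (quasi-likelihood, filterByExpr by group, TMM) fitted across all genes on the 4 groups of 1 tumour kind (the untreated groups for primary against allograft, all 48 samples for the interaction), with Benjamini-Hochberg adjustment over all genes tested and a threshold of 0.05; all 50 genes passed the filter in every fit. DESeq2 1.42.0 was the alternative. Correlations used log2(CPM + 1), a pseudocount of 1, minus group means, with 100000 permutations within groups, two-sided, adjusted over 12 correlations. Named genes were Acta1, Ckm, Mb, the 6 fast and slow pairs, and up to 5 called members per direction. The steps were tested on simulated data. The members, lists and tests were chosen with earlier results of these data known. Alternatives were filters, scalings, covariates, the samples in the fit and leaving out each tumour. A result on 1 gene ranked by likeness is not reported here.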

Additional observations from a re-analysis of the deposited data

Results flagged for a closer look

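In checks of 18 values in each of 8 groups, 41 values lay further from the rest of their group than a Dixon test allows at the 95% level. Chance gives about 5% of groups only for normally distributed values. These were unlogged CPM with a long upper tail, and all flagged values were the highest of their group. The number of flags is thus no measure of an excess over chance. The 18 values are summed CPM, the summed fast and slow CPM, and Acta1, Ckm, Mb and the 6 fast and slow pairs, most of which vary together (Atp2a2 does not), so that the checks are not independent.

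Tumour 4 of the irradiated anti-PD-1 primary group accounted for 13. Its summed CPM was 137126 and its fast sum 74778 CPM, with Acta1 at 19390, Ckm at 9788, Mb at 1585, Tnni2 at 2771, Tnnt3 at 6695, Tnnt1 at 88.9, Tnnc2 at 3272, Atp2a1 at 12738, Casq1 at 1257, Myh4 at 21029 and Myh7 at 76.8 CPM. Tumour 4 of the irradiated isotype primary group accounted for 9. Its summed CPM was 75518 and its fast sum 43026 CPM, with Acta1 at 10166, Ckm at 5082, Tnnt3 at 3897, Tnnc2 at 1880, Atp2a1 at 5166, Casq1 at 470 and Myh4 at 14986 CPM. Both were high in fast genes and in Ckm, and the first also in slow Tnnt1 and Myh7.

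Tumour 1 of the irradiated isotype primary group stood out in Tnni1 (68.4 CPM), Tnnt1 (87.6 CPM) and Tnnc1 (49.0 CPM), and tumour 3 of the irradiated anti-PD-1 primary group in Tnnc1 (69.4 CPM) and Casq2 (62.0 CPM). Tumour 1 of the unirradiated anti-PD-1 allografts had a slow sum of 1421 CPM, with Tnni1 at 130.8, Tnnt1 at 265, Tnnc2 at 718, Tnnc1 at 99.6 and Myh7 at 235 CPM. Its heart markers summed to 23.97 CPM, against 2.72, 2.42 and 2.08 CPM in the rest of its group. Their part in its slow sum was not tested. Tumour 3 of the unirradiated isotype allografts stood out in Tnnc1 (20.4 CPM) and Myh7 (60.8 CPM), tumour 3 of the irradiated isotype allografts for Tnnc1 (27.4 CPM) and Myh7 (48.4 CPM), and tumour 2 of the irradiated anti-PD-1 allografts for Tnnt1 (186 CPM).

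At 0 Gy, primary tumour 3 of the anti-PD-1 group stood out in its fast sum (7414 CPM) and Myh4 (3285 CPM), and primary tumour 6 of the isotype group for Casq1 (80.5 CPM).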

How the results depend on the processing

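No paired analysis was possible because the replicate numbers follow accession order and the labels pair no tumours. Counts of the 50 genes called moved as follows. For 20 Gy under anti-PD-1 in primary tumours (1 in edgeR), DESeq2 gave 13, a fit of the 2 groups alone 0 and one of all 48 samples 2, and leaving out single tumours gave 0 to 2. For the combination in primary tumours (2), DESeq2 gave 23, no filter, the Xist covariate and the 2 groups alone 0 each, all 48 samples 5, and single tumours left out 0 to 5. For the combination in allografts (1), DESeq2 and a filter at 1 CPM gave 2 each, no filter, the Xist covariate, the 2 groups alone and all 48 samples 0 each, and single tumours left out 0 to 1. In allografts given isotype, 20 Gy gave 2 in DESeq2 and 0 to 1 with single tumours left out; under anti-PD-1 DESeq2 gave 1, as it did for untreated primary tumours against allografts. Other counts stayed at 0 under every alternative run. The main edgeR fits called 7.92% of all genes for 20 Gy under anti-PD-1 in primary tumours. For the combination they called 13.8% in primary tumours and 9.66% in allografts. Shares of all genes under the filter, covariate and sample-set alternatives are not given, so those counts of the 50 cannot be set against them. Atp2a1 with Atp2a2 changed sign: -0.03 in primary tumours and -0.011 in allografts without group centring, -0.014 in primary tumours with CPM by total counts, and -0.441 in allografts without the 2 extreme tumours. That last setting also took the adjusted p over the threshold for Tnni2 (r = 0.493) and Casq1 (0.635) in allografts, Tnnc2 in both kinds (0.473 and 0.580 in primary tumours and allografts) and Myh4 (0.351) in primary tumours. The medians of summed CPM moved by less than the spread between tumours. The cause of these changes was not tested. Depth limits the lowest genes: 7 of the 50 (Ckmt2, Cox8b, Myh7, Myl3, Myot, Myoz2 and Smpx) had no count in at least 1 tumour, and Myh7 and Myl3 exceeded 1 CPM in 26 of 48.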
